A study of Mus musculus with 4 samples.

Results

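The genes described are those of 2 kinds of protein that set how much calmodulin and how much free calcium a neuron has at hand. Of the 9, 6 encode calmodulin-storing proteins or their close relatives and 3 encode EF-hand calcium buffers. They were chosen by name, as the probe sets (groups of probes that read 1 transcript) annotated with exactly 1 of these symbols, and all 9 were measured, each by 1 probe set, among 19938 genes in all. Their names were chosen with earlier results of these data known.

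The arrays compared cultured mouse cortical neurons under 2 treatments with control-infected cultures. In the knockdown (2 samples), lentiviruses carried shRNAs against calmodulin. In the rescue (2 samples), viruses also supplied wild-type calmodulin in a form resistant to these shRNAs, so both groups carry the shRNAs. Control cultures received control lentiviruses, and they enter only as the denominator of each ratio, with 1 control array for each of the 2 repeats. The pups were newborn (postnatal day 0), of mixed SV129 x C57BL/6 strain, and either deficient in Syt1 or wild type, and the labels do not tell which array came from which. Infection was at 5 days in vitro and RNA was taken at 14 to 15 days. The medium held serum and Ara-C, an inhibitor of dividing cells, and the share of glia is not given. In such bulk samples, fewer cells of a type and less RNA per cell cannot be told apart.

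Calmodulin is the main calcium sensor of neurons, and much of it is bound to abundant proteins when calcium is low. Neurogranin and GAP-43 bind it through an IQ motif and release it as calcium rises or when protein kinase C phosphorylates that motif, and PEP-19 binds it through a motif of the same kind. MARCKS and its relative MARCKSL1 bind calmodulin, acidic membrane lipids and actin through a basic stretch that is also a protein kinase C substrate. Parvalbumin, calbindin and calretinin bind calcium itself, and in cortex each is prominent in certain classes of GABAergic interneuron.

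RefSeq start-site regions (GRCm38.p6, 250 bases before to 50 after the annotated start) were at hand for 5 of the 9 genes: Nrgn, Pcp4, Pcp4l1, Marcksl1 and Pvalb. Those of Marcksl1, Pcp4l1 and Nrgn are shown because their mean differences between knockdown and rescue spanned the range of the calmodulin-storing genes, at -0.80, -0.44 and -0.14 in this order, none past the test. Capitals mark matches, on either strand, to the GC box GGGCGG and the TATA box TATAAA.
Marcksl1, chr4:129513331-129513630, plus strand: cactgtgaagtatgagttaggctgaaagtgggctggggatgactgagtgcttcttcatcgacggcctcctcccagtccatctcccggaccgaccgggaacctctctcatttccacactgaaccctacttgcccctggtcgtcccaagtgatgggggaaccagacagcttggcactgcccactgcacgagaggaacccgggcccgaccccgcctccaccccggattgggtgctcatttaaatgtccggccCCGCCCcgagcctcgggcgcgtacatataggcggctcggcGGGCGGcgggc
Pcp4l1, chr1:171196219-171196518, minus strand: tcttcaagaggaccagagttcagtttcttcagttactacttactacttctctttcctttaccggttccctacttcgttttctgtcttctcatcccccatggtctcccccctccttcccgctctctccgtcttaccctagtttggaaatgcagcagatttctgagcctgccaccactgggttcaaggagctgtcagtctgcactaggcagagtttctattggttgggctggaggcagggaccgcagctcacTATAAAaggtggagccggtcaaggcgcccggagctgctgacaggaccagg
Nrgn, chr9:37552696-37552995, minus strand: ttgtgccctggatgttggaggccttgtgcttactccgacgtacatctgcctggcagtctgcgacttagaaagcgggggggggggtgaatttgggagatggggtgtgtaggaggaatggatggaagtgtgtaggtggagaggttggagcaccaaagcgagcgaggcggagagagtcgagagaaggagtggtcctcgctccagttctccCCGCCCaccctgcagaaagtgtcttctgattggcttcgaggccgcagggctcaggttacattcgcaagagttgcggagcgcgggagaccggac
The GC box matched 2 times in the Marcksl1 region, from positions -1 and 40 relative to the annotated start, and 1 time in that of Nrgn, from position -43. The TATA box matched 1 time in that of Pcp4l1, from position 1. Of 32851 start-site regions of the same length, 35.7% held the GC box and 13.6% the TATA box. The core TGACG of the cAMP response element was in 20.8% of them and in 0 of the 3 shown. The regions of Pcp4 and Pvalb, which are not shown, held 0 matches to any of these motifs. The 2 motifs in capitals do not overlap. These matches describe letters and do not mark bound sites.

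Values are log2 ratios to the control array of the same repeat, so that 0 is equality with control. They carry no signal levels, so neither the abundance of these transcripts nor the cell type named in the labels could be checked against expressed markers. The targeted genes were low in every sample: Calm2 was at -1.08 and -1.72 in the knockdown and at -0.84 and -1.28 in the rescue, and Calm3 at -1.32 and -2.40 in the knockdown and at -2.41 and -3.55 in the rescue. Knockdown repeat 2 stood apart in spread, with a standard deviation across genes of 0.349, against 0.242 in knockdown repeat 1 and 0.243 and 0.232 in the rescue. All 9 reservoir and buffer genes lay below control in that sample (median -0.55, all genes 0.02), against 5 of 9 in knockdown repeat 1 (median -0.01, all genes -0.02). In the rescue, 2 of 9 lay below control in repeat 1 (median 0.05) and 6 of 9 in repeat 2 (median -0.08). Results below are therefore also given by repeat.

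**Figure D1:**
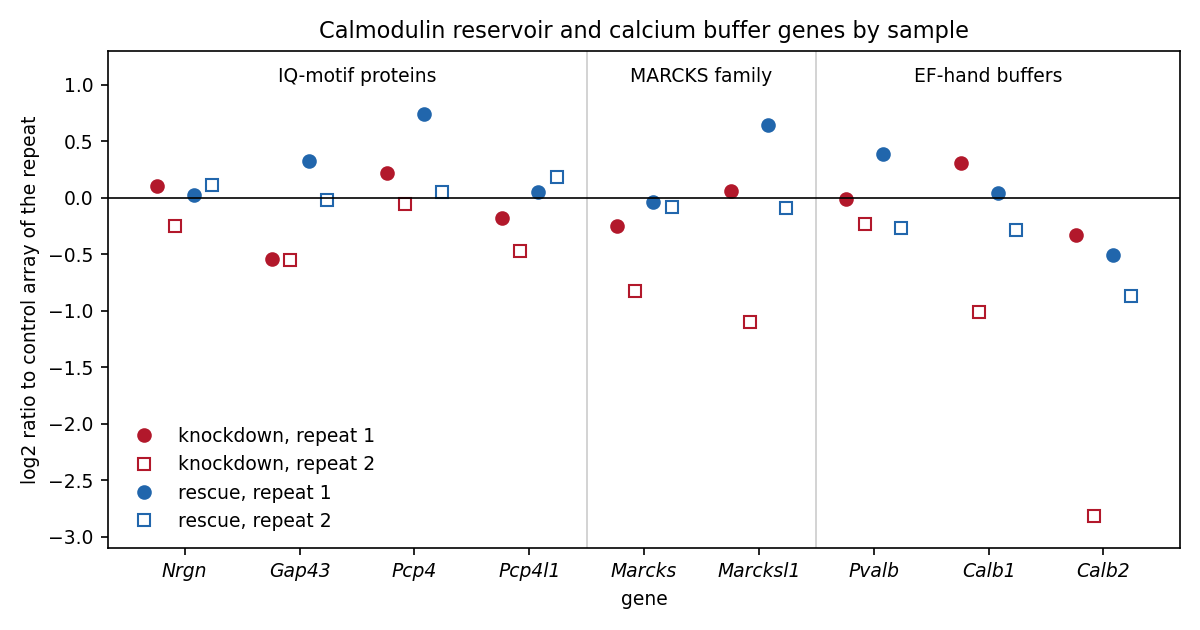
Log2 ratio to the control array of the same repeat (vertical axis) for each of the 9 genes (horizontal axis), 1 point per sample, with knockdown in red and rescue in blue and repeat 1 as filled circles and repeat 2 as open squares. The 2 knockdown points of Gap43 coincide at about -0.5, and the point of Calb2 in knockdown repeat 2, at -2.82, is far below all others.

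When calmodulin was depleted, none of the 9 genes passed the test against control over all genes (limma, adjusted p under 0.05), where 0.306% of all genes did. Unadjusted, 4 of 9 had a p under 0.05 (16% of all genes), all 4 of them below control: Gap43, Pcp4l1, Marcks and Calb2. The knockdown mean lay below control for 8 of 9 (49.6% of all genes), and both repeats did for 5 of 9 (31.1% of all genes). When the repeat entered as a block, which the shared repeat days in the labels allow, 4 of 9 passed and all were lower than control: Gap43, Marcks, Marcksl1 and Calb2. That fit called 5.39% of all genes, 1.91% as higher and 3.48% as lower. Against control it also takes out the spread between repeats, including that of the control arrays, which both treatments of a repeat share. Its p-values against control leave out that spread and can therefore be too small.

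Gap43 encodes a growth-cone and presynaptic protein that marks growing and regenerating axons. It stood at -0.54 and -0.55 in the knockdown, which is 68.6% and 68.5% of control, and at 0.32 and -0.02 in the rescue. Both knockdown values lay below both rescue values, and the knockdown repeats agree within 0.01 on this scale. The mean against control was -0.54 (SE 0.13, n = 2, 95% interval -0.84 to -0.25), with a limma adjusted p of 0.111 and of 0.0329 with the repeat as a block. Its place among all genes was low in each repeat: 2.18% of genes were lower in knockdown repeat 1 and 5.42% in knockdown repeat 2.

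Nrgn encodes neurogranin, the calmodulin store of dendrites and spines of excitatory neurons. It was at 0.10 and -0.25 in the knockdown and at 0.02 and 0.11 in the rescue. The groups overlap, and the signs of the knockdown repeats differ. The mean against control was -0.08 (SE 0.13, n = 2, limma adjusted p = 0.808), with a 95% interval of -0.38 to 0.22.

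Pcp4 encodes PEP-19, a small IQ-motif protein that speeds calcium exchange at calmodulin, and Pcp4l1 encodes its close relative. Pcp4 was at 0.22 and -0.06 in the knockdown and at 0.74 and 0.05 in the rescue. These overlap, and the high value is that of rescue repeat 1, where 99.6% of genes were lower. Pcp4l1 was at -0.18 and -0.47 in the knockdown, with both values below control, and at 0.05 and 0.18 in the rescue, with both above it. Its knockdown mean of -0.32 (SE 0.13, n = 2) did not pass the limma test (adjusted p = 0.266; 0.135 with the block). The pair of relatives thus lay on different sides of control in the knockdown, Pcp4 at a mean of 0.08 and Pcp4l1 at -0.32, without a test between them.

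The MARCKS genes encode proteins that tie the actin cortex to the plasma membrane. Marcks was at -0.25 and -0.83 in the knockdown, that is 83.9% and 56.3% of control, and at -0.04 and -0.08 in the rescue. Both knockdown values lay below both rescue values, and the rescue values are close to control. Its knockdown mean was -0.54 (SE 0.15, n = 2, limma adjusted p = 0.155, and 0.0425 with the block). It was -0.25 without knockdown replicate 2 and -0.83 without knockdown replicate 1, each then the value of the array left. Marcksl1 was at 0.06 and -1.10 in the knockdown and at 0.64 and -0.09 in the rescue. The groups overlap, because within each treatment repeat 2 was lower than repeat 1, by 1.17 in the knockdown and 0.73 in the rescue. Its knockdown mean of -0.52 had a SE of 0.27 (n = 2, limma adjusted p = 0.387), against a SE of 0.12 with the repeat as a block (adjusted p = 0.0418). Without knockdown replicate 2 the Marcksl1 mean was 0.06.

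Calb2, the gene of calretinin, had the lowest ratio of all 19938 genes in knockdown repeat 2, at -2.82 or 14.1% of control. It was at -0.33 (79.4% of control) in knockdown repeat 1, where its rank from the lowest was 1631, and at -0.51 and -0.87 in the rescue. All 4 values lay below control, and knockdown repeat 1 was higher than both rescue samples, so the groups overlap. The knockdown mean was -1.58 (SE 0.46, n = 2, 95% interval -2.63 to -0.53), with a limma adjusted p of 0.165 and of 0.0217 with the block. Without knockdown replicate 2 it was -0.33, so its size rests on that sample.

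Calb1 encodes calbindin, a mobile buffer found in interneurons and in some excitatory neurons. It was at 0.31 and -1.01 in the knockdown and at 0.04 and -0.29 in the rescue. Knockdown repeat 1 was the highest of the 4 values and knockdown repeat 2 the lowest. Its knockdown mean of -0.35 (SE 0.26, n = 2, limma adjusted p = 0.553) turned to 0.31 without knockdown replicate 2.

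Pvalb encodes parvalbumin, the slow buffer of fast-spiking interneurons. It was at -0.01 and -0.23 in the knockdown and at 0.39 and -0.27 in the rescue. The groups overlap. Its knockdown mean was -0.12 (SE 0.17, n = 2, limma adjusted p = 0.764), with a 95% interval of -0.50 to 0.27. Between the 3 buffers the order of the knockdown means was Calb2, Calb1 and Pvalb from lowest to highest, and in knockdown repeat 1 their order was Calb2, Pvalb and Calb1.

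With the resistant calmodulin present, none of the 9 genes passed the test against control, where 0% of all genes did (limma; 7.44% had an unadjusted p under 0.05, among them 0 of the 9). With the block 0.125% of all genes passed and again none of the 9. The rescue mean farthest from control was that of Calb2, at -0.69 (SE 0.46, n = 2, 95% interval -1.74 to 0.36, limma adjusted p = 0.784). In a limma fit of only the 2 rescue samples its adjusted p was 0.0131. That fit called 176 genes, against 0 in the fit over all 4 samples. The rank of Calb2 from the lowest was 402 in rescue repeat 1 and 47 in rescue repeat 2. Pcp4 had the highest mean, at 0.39 (SE 0.17, limma adjusted p = 0.677), which was 0.05 without rescue replicate 1. The other 7 rescue means lay between -0.13 and 0.28, and Marcks was at -0.06 (95% interval -0.41 to 0.29).

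**Figure D2:**
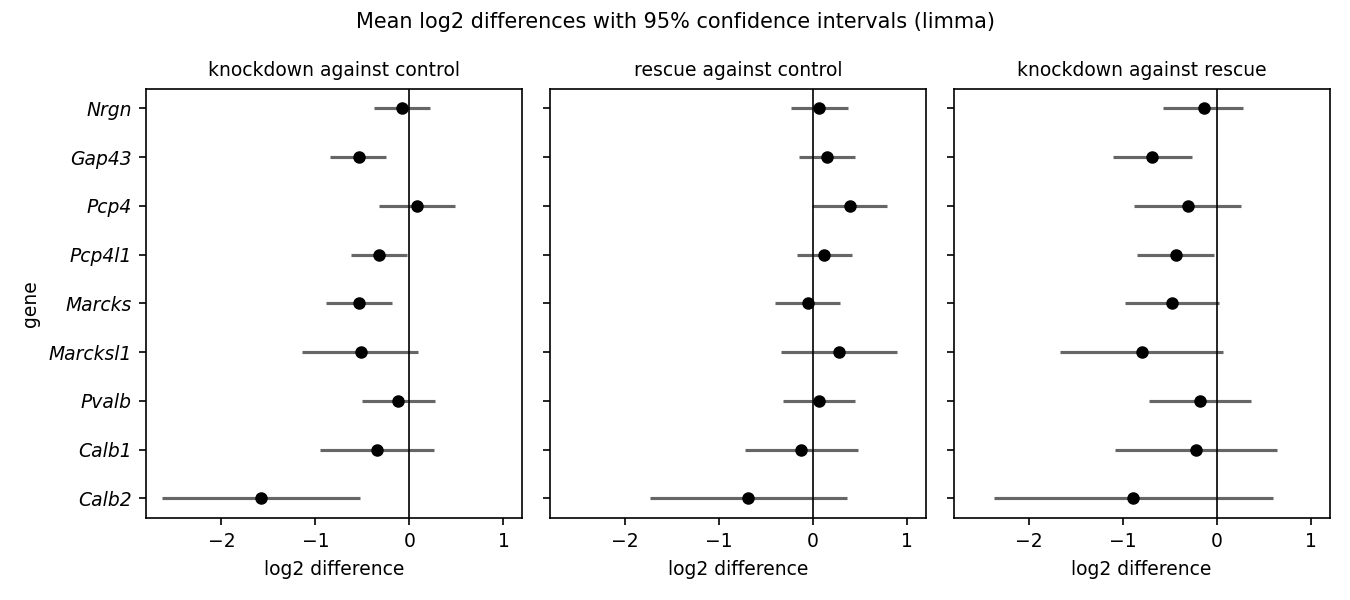
Mean log2 difference (points) and 95% confidence interval (bars) from limma for each gene, with knockdown against control on the left, rescue against control in the middle and knockdown against rescue on the right. The intervals of Gap43, Pcp4l1, Marcks and Calb2 lie below 0 in the left panel, and all 9 intervals of the middle panel include 0.

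The comparison of knockdown with rescue sets apart cultures that share the shRNAs and differ in the resistant calmodulin, and within a repeat the control array cancels. The groups also differed in Calm3, which was higher in the knockdown by 1.09 in repeat 1 and 1.15 in repeat 2. All 9 means were lower in the knockdown, as were those of 44.5% of all genes, and the median difference was -0.44, against 0.02 over all genes. None passed the limma test, where 0.0702% of all genes did, nor with the repeat as a block, where 0.617% did. Unadjusted, Gap43 and Pcp4l1 had a p under 0.05, as did 6.82% of all genes.

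By repeat, of the 6 storing genes, 5 were lower in the knockdown than in the rescue in both repeats, Nrgn being the exception, and of the 3 buffers 0 were. Over all genes 24.3% were lower in both repeats. These counts were read from the values, some of them near 0 (Nrgn at 0.08 in repeat 1 and Pvalb at 0.04 in repeat 2), and a difference between the 2 kinds was not tested.

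Gap43 was lower than in the rescue by -0.86 in repeat 1 and -0.52 in repeat 2. A lower difference was found for 0.968% of genes in repeat 1 and for 6.32% in repeat 2. Its mean difference was -0.69 (SE 0.18, n = 2 per group, 95% interval -1.11 to -0.27, limma adjusted p = 0.359; 0.112 with the block). Marcksl1 differed by -0.58 and -1.02, and its mean of -0.80 had a SE of 0.38 (limma adjusted p = 0.799; 0.0883 with the block, where the SE was 0.17). Although its groups overlap, its 2 repeat differences have 1 sign.

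Pcp4l1 differed by -0.23 and -0.65, Marcks by -0.22 and -0.75 and Pcp4 by -0.52 and -0.10. Gap43, Pcp4l1 and Marcks were the 3 genes of the 9 whose knockdown values both lay below both rescue values, as was so for 15.1% of all genes. Nrgn differed by 0.08 and -0.37, with a mean of -0.14 (95% interval -0.57 to 0.28).

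Among the buffers the repeats went different ways. Calb2 differed by 0.18 in repeat 1 and by -1.95 in repeat 2, where its rank from the lowest was 6. Calb1 differed by 0.27 and -0.72, and Pvalb by -0.40 and 0.04. Their mean differences were -0.89 for Calb2 (95% interval -2.37 to 0.60), -0.22 for Calb1 (-1.08 to 0.64) and -0.18 for Pvalb (-0.72 to 0.36), each with a limma adjusted p of at least 0.996.

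**Figure D3:**
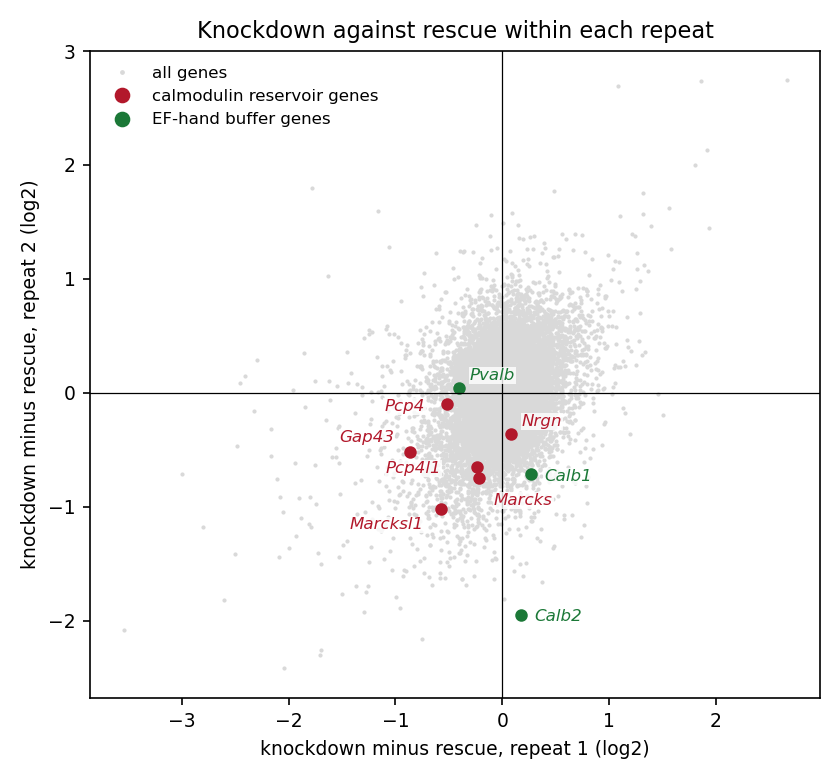
Log2 difference of knockdown minus rescue in repeat 1 (horizontal axis) and in repeat 2 (vertical axis), with all 19938 genes in grey, the 6 calmodulin-storing genes in red and the 3 buffer genes in green. Gap43, Pcp4, Pcp4l1, Marcks and Marcksl1 lie at the lower left, below 0 on both axes, and Calb2 lies low near the vertical axis.

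By Euclidean distance over the 4 log2 ratios, the patterns most like that of Gap43 were those of Rtn4rl2, a relative of the Nogo receptor (distance 0.11), and Rspo2, a secreted Wnt modulator (0.14). Rtn4rl2 was at -0.47 and -0.50 in the knockdown and at 0.30 and -0.09 in the rescue. Marcks was nearest to Actl6b, a subunit of neuronal chromatin remodelling complexes (0.11), and Dynll1, a dynein light chain (0.13). Marcksl1 was nearest to Pcdh8, a protocadherin (0.21), and had 1 gene within a distance of 0.3. Calb2 had 0 genes within that distance. The nearest to it was Kcnip2, a calcium-binding subunit of A-type potassium channels, at a distance of 1.18, and stood at -0.47 and -1.77 in the knockdown and at -0.38 in both rescue samples. Nrgn, in contrast, had 1511 genes within 0.3, so its neighbours carry little information.

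Other genes around these proteins were described from lists. Of 8 measured protein kinase C isoforms, the kinases that act on GAP-43, neurogranin and the MARCKS proteins, 0 passed in any of the 3 comparisons in limma, with 4 at an unadjusted p under 0.05 in knockdown against control (16% of all genes), and their knockdown median was -0.22 against 0.00 for all genes. Prkce, a calcium-independent isoform, was at -0.54 and -0.65 in the knockdown and at -0.22 and 0.21 in the rescue, and with the block it was lower than control (limma adjusted p = 0.0330; 0.107 without). Prkca was at -0.27 and -0.29 in the knockdown and at -0.02 and 0.22 in the rescue. Prkcd lay on the other side, at 0.31 and 0.33 in the knockdown and at -0.08 and -0.08 in the rescue. Neither passed either fit.

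Of 17 other calmodulin binders with IQ motifs or in the membrane skeleton, 0 passed in any comparison in limma, with 6 at an unadjusted p under 0.05 in knockdown against control (16% of all genes), and the knockdown median was -0.21. Myo5b, an unconventional myosin that carries calmodulin as its light chains, was low in all 4 samples, at -0.57 and -1.41 in the knockdown and at -0.86 and -0.60 in the rescue. It was lower than control in the knockdown with the block (limma adjusted p = 0.0201; 0.0837 without). Iqsec3, an exchange factor of inhibitory synapses, had 2 separate groups, at -0.36 and -0.38 in the knockdown and at 0.57 and 0.39 in the rescue (limma adjusted p = 0.200 for the difference; 0.0538 with the block).

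Other calcium buffers and calcium storage proteins did not lie below control as a list. Of 24 measured, 0 passed in limma in the knockdown against control (9 at an unadjusted p under 0.05, as 16% of all genes), 3 were higher and 1 lower with the block (1.91% and 3.48% of all genes), and the knockdown median was 0.18. The 3 higher were the S100 genes S100a4, S100a6 and S100b, small EF-hand proteins found largely in non-neuronal cells. S100a4 was at 0.62 and 0.68 in the knockdown and at 0.12 and -0.20 in the rescue (limma adjusted p = 0.0837 against control; 0.0215 with the block). S100b was at 0.72 and 0.34 in the knockdown and at 0.23 and -0.50 in the rescue.

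Gap43 is by function a growth-associated neuronal gene. Of 20 others listed with it, Stmn4, a neuronal stathmin that binds tubulin, was lower over all genes. With the block 6 were lower, where 3.48% of all genes were. The list also holds the actin regulators Cap1 and Cap2, and Cap2 was among the 6 (limma adjusted p = 0.0467 with the block). Basp1 was counted with the other calmodulin binders instead, at -0.03 and -0.38 in the knockdown and at 0.05 and -0.09 in the rescue. The knockdown median of the 20 was -0.37 and the rescue median -0.15, against 0.00 and -0.01 for all genes. By mean, 17 of 20 lay below control in the knockdown and 16 of 20 in the rescue, and 10 of 20 were lower in the knockdown than in the rescue. Stmn4 was at -0.93 and -1.01 in the knockdown and at 0.00 and -0.23 in the rescue (mean -0.97 against control, SE 0.12, n = 2, limma adjusted p = 0.0290). Like Gap43, it was nearly the same in both knockdown repeats. Dcx, doublecortin of young neurons, was at -0.24 and -1.55 in the knockdown and at -0.28 and -0.32 in the rescue.

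**Figure D4:**
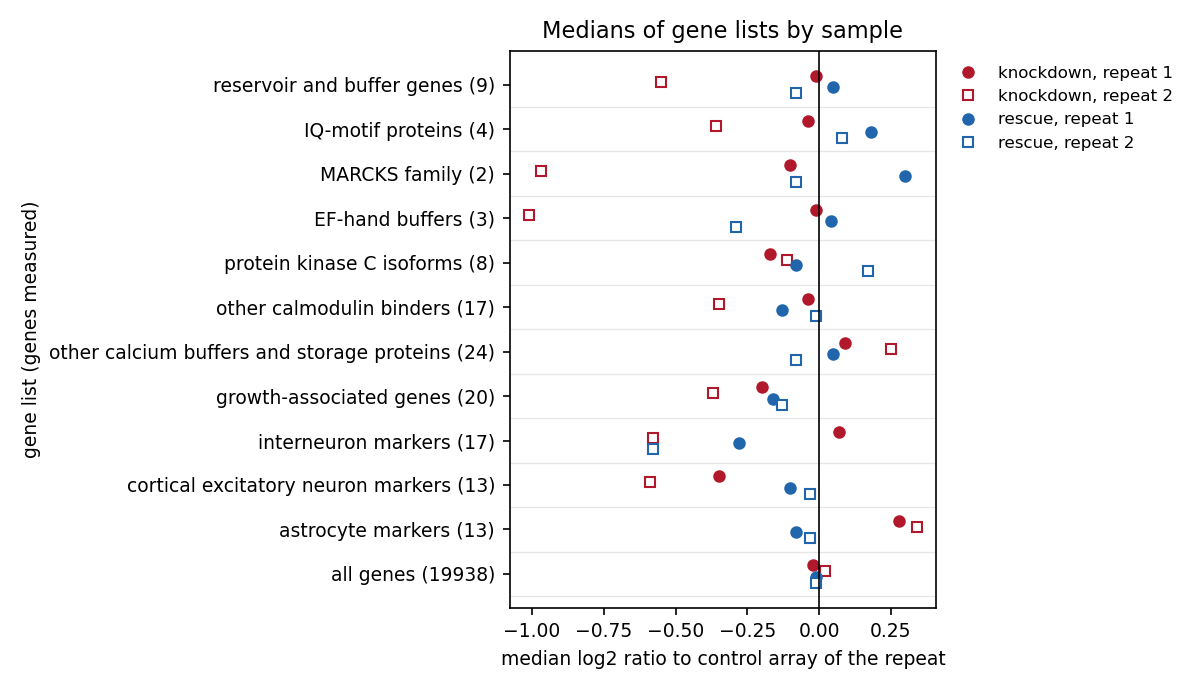
Median log2 ratio to control (horizontal axis) of each gene list (vertical axis, with the number of genes measured), 1 point per sample, with colours and symbols for treatment and repeat. The medians of the reservoir and buffer genes and of the interneuron markers are near 0 in knockdown repeat 1 and below -0.5 in knockdown repeat 2, while astrocyte markers lie above 0 in both knockdown samples.

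Markers of the cell classes that carry these genes also lay away from control in some of the samples. Of 17 measured interneuron markers, 7 lay below control in knockdown repeat 1 and 16 in knockdown repeat 2, with medians of 0.07 and -0.58, and in the rescue the medians were -0.28 and -0.58. By median, knockdown repeat 1 was thus the highest of the 4 for this list, as it was for Calb1 and Calb2. For Pvalb the highest was rescue repeat 1, at 0.39, against -0.01 in knockdown repeat 1. Gad1, which makes GABA, was low in all 4 samples, at -0.65 and -1.14 in the knockdown and at -0.84 and -0.91 in the rescue. Gad2, which also makes GABA, was at -0.33 and -0.58 in the knockdown and at -0.28 and -0.58 in the rescue. The vesicular GABA transporter Slc32a1 was at 0.36 and 0.34 in the knockdown and at -0.41 and -0.20 in the rescue. Gad2 and Slc32a1 are named here after their values were seen, and Lamp5 and Tac1 had larger mean ratios in the knockdown by size. Lamp5 was at -1.17 and -0.54 in the knockdown and at 0.64 and 0.61 in the rescue. Tac1 was at -0.61 and -0.76 in the knockdown and at -0.17 and -1.05 in the rescue. Cck, a neuropeptide gene also active in excitatory neurons, was lower than control in the knockdown (-0.99 and -1.51, limma adjusted p = 0.0219) and at 0.29 and 0.24 in the rescue.

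Of 13 cortical excitatory neuron markers, 11 lay below control in each knockdown sample, with medians of -0.35 and -0.59 in the knockdown and of -0.10 and -0.03 in the rescue. Neurod6 was at -0.81 and -2.49 in the knockdown and at 0.90 and -0.18 in the rescue. Slc17a6, a vesicular glutamate transporter, lay above control in all 4 samples, at 0.66 and 1.42 in the knockdown and at 1.61 and 0.62 in the rescue (limma adjusted p = 0.112 for knockdown against control; 0.0425 with the block). Nrgn, which is prominent in these neurons, was nearer to control than their median in both knockdown samples. Astrocyte markers had medians of 0.28 and 0.34 in the knockdown, with 13 and 12 of 13 above control, and of -0.08 and -0.03 in the rescue. The part of these shifts in the values of Gap43, the MARCKS genes and the buffers was not tested.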

How the data were processed

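Per the labels, total RNA was read on Affymetrix mouse Gene 1.0 ST arrays. The authors deposited linear ratios, 1 column per sample, of each test array over its repeat's control array, per the labels and the series' design. How arrays were background-corrected, summarized and normalized, and which genome build was used, was not stated in the sources, and the control arrays themselves were not analysed. Of 35399 probe sets, the platform annotation gave 21789 exactly 1 gene symbol. Log2 ratios were averaged per symbol to 19938 genes, and all 9 symbols matched RefSeq names (GRCm38.p6) through their Entrez identifiers.

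All genes were fitted with limma 3.58.1 in R 4.3.3 (two-sided, 1 coefficient per group over all 4 samples, 2 residual and 6.11 prior degrees of freedom), with Benjamini-Hochberg adjustment over all genes and a threshold of 0.05. A ratio tested against 0 leaves out much of the control's own spread, and both groups of a repeat share its control array. On simulated data the fit was checked only for returning the effects put in, which says nothing of the p-values. The labels give each sample a replicate date, and samples of 1 date, numbered alike here, were taken as pairs. Their deviations from the group means correlated at 0.305 across genes, and the model was also run with the repeat as a block (1 residual degree of freedom). Separate cultures per repeat are not stated, so the p-values cover only the spread of these samples, possibly a technical one.

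The genes and lists were chosen with earlier results of these data known. Named genes were all 9, the calmodulin genes, up to 4 genes per list by the size of the mean knockdown ratio, and the 2 nearest genes by distance. Genes named outside this rule are marked where they appear or serve to state what a list holds. Lists were described by counts and medians, without a list test. Alternatives were the block, median centring, quantile normalization, every probe set tested, fits of 1 group, and leaving out each sample.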

Additional observations from a re-analysis of the deposited data

How the results depend on the processing

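Each value depends on 2 arrays per group and 1 probe set per gene, without signal levels that would show dim probes. Of 234 values of the 9 genes under the alternatives, 13 passed the threshold and 13 changed sign, all of these when 1 sample was left out. Several alternatives, such as the block and the fits of 1 group, leave the mean as it is by construction, so the other values are no measure of stability. Against control, the fit of 1 group is also the same fit as leaving out either sample of the other group. The pass of Calb2 in the rescue is thus counted more than once. Against control, the knockdown called 0 of the 9 genes, 4 with the replicate block, and 0 to 4 when a sample was left out, the 4 without knockdown replicate 1 being Marcks, Marcksl1, Calb1 and Calb2. The rescue called 0, with 1 (Calb2) in the fit of its samples alone and 0 to 1 when a sample was left out. Knockdown against rescue called 0, with 0 to 2 when a sample was left out, Marcksl1 and Calb2 without knockdown replicate 1. Over all genes, knockdown against control called 61, with 1074 under the replicate block, 20 after quantile normalization, 12 in the fit of the knockdown samples alone, 0 with every probe set tested and 12 to 1272 when a sample was left out. Rescue against control called 0, with 25 under the replicate block, 1 after quantile normalization, 176 in the fit of the rescue samples alone and 0 to 176 when a sample was left out. Knockdown against rescue called 14, with 123 under the replicate block, 4 after median centring, 2 after quantile normalization, 0 with every probe set tested and 0 to 350 when a sample was left out. Leaving out 1 sample, knockdown against control ranged from -1.01 to 0.31 for Calb1, -1.10 to 0.06 for Marcksl1, -0.25 to 0.10 for Nrgn and -0.06 to 0.22 for Pcp4. Knockdown against rescue ranged from -0.88 to 0.43 for Calb1, -2.13 to 0.36 for Calb2, -0.32 to 0.03 for Nrgn, -0.66 to 0.04 for Pcp4 and -0.51 to 0.15 for Pvalb. Rescue against control ranged from -0.29 to 0.04 for Calb1, -0.02 to 0.32 for Gap43, -0.09 to 0.64 for Marcksl1 and -0.27 to 0.39 for Pvalb. With 1 sample left in a group, it was assumed to vary like the other group. Beyond the fits with fewer samples or more features, the cause was not tested.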

Other observations

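Other cell classes could contribute to these cultures. Oligodendrocyte lineage markers (9 measured) had medians of 0.03 and 0.18 in the knockdown and of -0.09 and -0.15 in the rescue. Microglia markers (9 measured) had medians of -0.35 and -0.01 in the knockdown and of -0.64 and -0.14 in the rescue, so that repeat 1 was the lower one under both treatments. Fibroblast markers (6 measured) had medians of -0.06 and 0.53 in the knockdown and of -0.12 and -0.09 in the rescue. In these 3 lists 0 genes passed in any comparison in limma, with or without the repeat as a block. At an unadjusted p under 0.05 there were 1 of these 24 genes in knockdown against control (16% of all genes), 6 in rescue against control (7.44%) and 2 in knockdown against rescue (6.82%).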
